A study of Drosophila melanogaster
Mus musculus with 6 samples.

Results

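In wild-type cells, 10488 autosomal stretches of 10 kb carried H3K36me2 and a moderate level of H3K27me3 together. By the deposited factors, in K36M cells they fell to a low level of the first mark and kept at least 0.667 times the second. They were 4.52% of the 231965 autosomal bins of 10 kb with signal, among 253926 intervals in the deposited table. A bin was a member if it lay on chromosomes 1 to 19 and held at least 150 scaled reads of H3K36me2 and from 20 to under 60 of H3K27me3 in wild type. In K36M it had to hold under 40 of H3K36me2, and at least 0.667 times its wild-type H3K27me3. Scaled reads are reads multiplied by 1 factor per library, as deposited by the authors.

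The cells were C3H10T1/2, a line of mesenchymal progenitors from mouse embryos of the C3H strain, at passages 10 to 15. One population stably expressed histone H3.1 with a FLAG-HA tag in its wild-type form (WT). The other expressed the same tagged H3.1 as the K36M mutant, in which methionine replaces lysine 36 (K36M). All values below come from 4 libraries, H3K36me2 and H3K27me3 immunoprecipitates of each line, into which chromatin of Drosophila S2 cells had been spiked as a reference. The labels do not say whether either line is clonal, nor how much of the cellular H3 is transgenic. Each mark was measured once per line, so the lines cannot be tested against each other and differences are given as sizes without a p-value. Intervals on ratios cover the counting error of reads only and are exact binomial at 95%. Those on shares of bins or runs are exact binomial too, but treat these units of the same libraries as independent. Neighbouring bins are not, so these intervals are a description. Without molecular identifiers, reads may repeat a molecule.

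H3K36me2 is laid down over broad genic and intergenic domains by NSD and ASH1L methyltransferases, and H3K36M histones block such enzymes. H3K27me3 is laid down by EZH2 or EZH1 within Polycomb repressive complex 2 (PRC2) and marks repressed chromatin. PRC2 is known from biochemical work to act poorly on histone tails already methylated at lysine 36, and the marks occupy largely separate domains. A 10 kb bin spans many nucleosomes of many cells, so marks on the same nucleosome, on neighbouring nucleosomes and in different cells cannot be told apart here.

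Of 91919 autosomal bins with at least 150 scaled reads of H3K36me2 in WT, 11214 (12.2%) also held 20 or more of H3K27me3, a level that 19.3% of all autosomal bins reached. Of the 11214, 509 were left out for reaching 60. The K36M criteria removed few: 62 bins kept 40 or more scaled reads of H3K36me2, and 155 fell below the H3K27me3 limit. Members were thus 11.4% of H3K36me2-rich bins, and 98.0% of the 10705 bins that met the WT criteria alone. The number of members depends on the limit: with a WT H3K27me3 minimum of 15 it was 16591.

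The levels that follow chose the members and are a description. H3K36me2 in members had a median of 204 scaled reads in WT, with a lowest value of 150.1 and a highest of 1088, and a median of 6.94 in K36M, from 2.496 to 38.6. The autosomal medians of these libraries were 103 and 6.24. Members therefore stood at about 2 times the autosomal median in WT and close to it in K36M. H3K27me3 had a median of 27.9 in WT, from 20.1 to 59.95, and of 55.2 in K36M, from 13.9 to 316, against autosomal medians of 5.67 and 28.6. A median member held 320, 89, 256 and 187 reads for H3K36me2 in WT and K36M and then H3K27me3 in WT and K36M. The corresponding half-widths of a 95% counting interval, by a normal approximation, were 11.0%, 20.8%, 12.3% and 14.3%.

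The median member had 29.8-fold less H3K36me2 in K36M than in WT and 1.83 times the H3K27me3, with an interquartile range of 1.43 to 2.33 for the latter. Summed over members, the ratios of K36M over WT were 0.03464 (0.03456 to 0.03471) and 1.85 (1.851 to 1.858). H3K27me3 was above its WT value in 9837 members (93.8%) and not above it in 651. Members had to pass a limit on this ratio, and the WT criteria alone gave 92.5%. The share was 99.4% of 69005 H3K36me2-rich bins with less WT H3K27me3 and K36M H3K36me2 under the members' limit. In bins with the members' WT H3K27me3 range, it was 78.5% of 17833 with intermediate WT H3K36me2 and 83.0% of 8056 with the least. The shares are a description. With each library scaled to its own total, the members' median H3K27me3 ratio turned to 0.723 and that of H3K36me2 was 0.314. The direction for H3K27me3 in members thus rests on the deposited factors.

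A bin was counted as changed when log2(value + pseudocount) differed by 2-fold or more between the lines, with pseudocounts of 1.64 for H3K27me3 and 19.7 for H3K36me2. Only bins whose mean of the lines reached the 25th percentile were counted. By this rule H3K27me3 was higher in 3943 of 10488 members (37.6%), against 70.9% of all autosomal bins tested. The rule for members used this contrast and required WT H3K27me3 of 20 or more, above that of most bins, so nothing is read from the difference between these shares. Scaled to library totals, 19 members passed, against 32.8% of autosomal bins tested. H3K36me2 was lower in all 10488 members, against 89.7% of autosomal bins, as the rule requires.

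**Figure D1:**
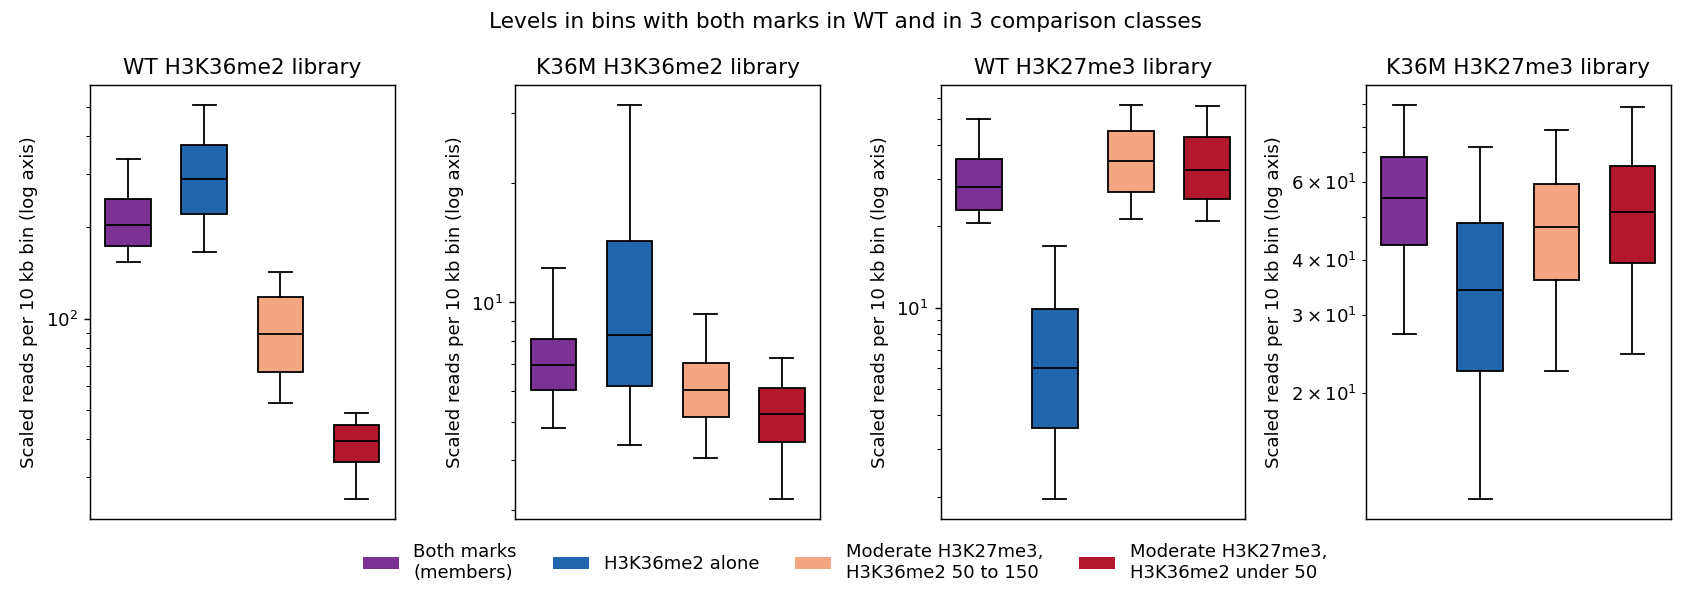
Scaled reads per 10 kb bin (log axes that do not start at 0) in the 4 libraries, for members, H3K36me2-rich bins with WT H3K27me3 under 20 and K36M H3K36me2 under 40, and bins with the members' WT H3K27me3 range but H3K36me2 of 50 to 150 or under 50; boxes are quartiles with the median, whiskers the 5th and 95th percentiles. Members have the highest median H3K27me3 of the 4 classes in K36M (55.2, against 34.2, 47.5 and 51.3), but only members had to pass a limit on it. Bins that met the WT criteria alone had a median of 54.9. The order over bins with H3K36me2 under 50 did not hold when K36M H3K36me2 was matched.

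The thresholds cut through continuous distributions. Between 150 and 165 scaled reads of WT H3K36me2 lay 1734 members, and 1826 bins that met every other criterion lay between 135 and 150. Their median H3K27me3 in K36M was 49.6 inside and 50.4 outside. At the lower H3K27me3 limit, 1678 members lay between 20 and 22 and 2029 other bins between 18 and 20, with K36M medians of 47.2 and 46.3. At the upper one, 239 members lay between 54 and 60 and 179 bins between 60 and 66, with K36M medians of 77.0 and 81.4. The K36M limits had few bins near them, with 8 members and 8 other bins within 10% of 40 scaled reads of H3K36me2. There were 97 members just above the H3K27me3 ratio of 0.667 and 69 bins just below it. Every criterion was met by more than 2 counting standard deviations in 5661 members.

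Since the WT criteria alone chose nearly the same bins, the K36M values of all 10705 such bins can be described without the K36M limits. Few of them reached the rule's limit: 62 bins, or 0.579% (0.444% to 0.742%), kept 40 or more scaled reads of H3K36me2 in K36M. Among the 80705 H3K36me2-rich bins with WT H3K27me3 under 20, 11700 did, or 14.5% (14.3% to 14.7%). These intervals treat bins as independent and may be too narrow. The share was lower in the bins with both marks on 19 of 19 autosomes. Between WT H3K36me2 of 150 and 250, where the levels are alike (medians of 188 and 198), the shares were 0.320% and 25.8%. These shares rest on the deposited factors: with library totals the median H3K36me2 ratio of K36M over WT in the 10705 bins was 0.314.

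The difference lay at the low end of H3K27me3 and did not begin at 20 scaled reads. Of H3K36me2-rich bins, 28.6% kept 40 or more scaled reads of H3K36me2 where WT H3K27me3 was under 5, 2.03% did between 5 and 10, 0.986% between 10 and 15 and 0.648% between 15 and 20. Within the range of the members the shares were 0.541% from 20 to 30 and 0.633% from 30 to 60. Where WT H3K36me2 was 250 or more, the share was 2.86% (1.76% to 4.38%) from 30 to 60, above the 0.493% (0.263% to 0.841%) from 15 to 20. In the 509 bins at 60 or more, whatever their K36M values, the share was 5.89% (4.01% to 8.31%). It came from 28 of 88 bins with WT H3K36me2 of 250 or more (31.8%) and 2 of the other 421 (0.475%). With a limit of WT divided by 4 in place of 40 scaled reads, the share was 0% in the 88 bins and 0.196% in the 509. Low shares were thus found from 5 to 60 scaled reads of WT H3K27me3, a range that starts below that of the members.

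**Figure D2:**
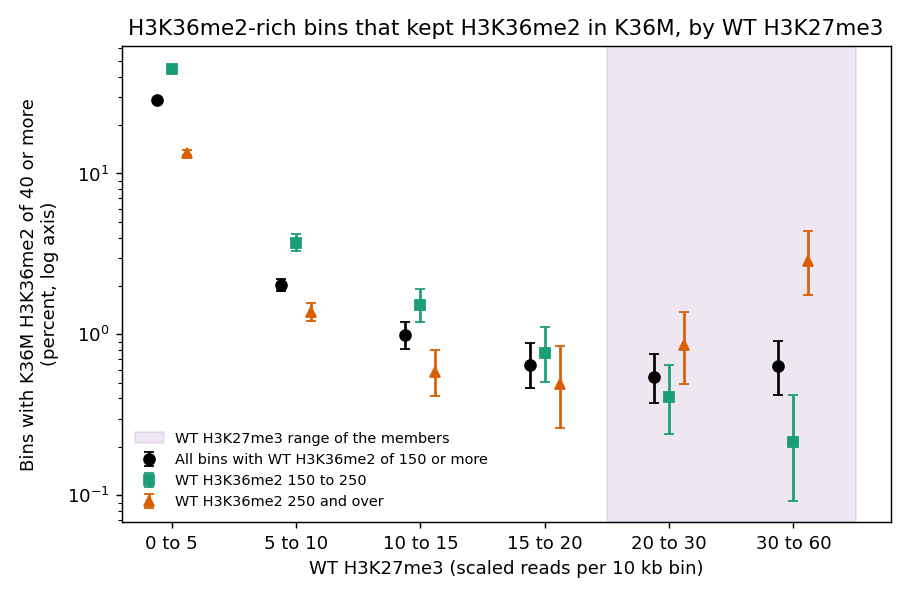
Percent (log axis) of bins with WT H3K36me2 of 150 or more that held 40 or more scaled reads of H3K36me2 in K36M, by WT H3K27me3. Points are shares of bins, and the shaded range is that of the members. Bars are 95% exact binomial intervals that treat bins as independent. The share for all bins drops from 28.6% under 5 scaled reads of H3K27me3 to 0.541% between 20 and 30.

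The 10705 bins that met the WT criteria were next set beside bins with the same WT H3K27me3 but less H3K36me2, so that all were chosen on WT values alone. For WT H3K27me3 of 20 to 30, the median in K36M was 50.2 scaled reads in 6281 H3K36me2-rich bins, 38.6 in 6264 bins with H3K36me2 of 50 to 150, and 45.7 in 3436 bins with H3K36me2 under 50. For WT H3K27me3 of 50 to 60, these medians were 72.6, 59.3 and 62.8. The H3K36me2-rich bins were highest and the intermediate ones lowest in each of the 4 bands of 10 scaled reads. Quartiles overlapped widely, for example 38.9 to 62.0 against 29.5 to 48.7 in the lowest band. The mean ratio of medians over the bands was 1.25 for rich over intermediate bins and 1.14 for rich over poor bins. Both were above 1 on 19 of 19 autosomes, from 1.16 to 1.35 and from 1.02 to 1.30.

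The comparison with H3K36me2-poor bins did not hold when the residual H3K36me2 signal was matched as well. Median K36M H3K36me2 in the lowest band was 6.86 scaled reads in rich, 5.85 in intermediate and 5.15 in poor bins, so the classes also differed in a library that lay near its autosomal median in each of them. Among bins with 6 to 7 scaled reads of K36M H3K36me2, a restriction chosen after seeing the data, the rich over intermediate ratio was 1.15 and the rich over poor ratio turned to 0.956. In the lowest band the medians were then 48.4 for rich, 41.3 for intermediate and 55.5 for poor bins. Rich bins were below poor ones in the next band, at 56.8 and 60.2, above them from 40 to 50, at 63.1 and 61.7, and below them from 50 to 60, at 67.3 and 68.4. The input libraries were not analysed here, and the part of DNA amount or mappability in these levels was not tested.

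Among bins with both marks, K36M H3K27me3 was higher where WT H3K36me2 had been higher. For WT H3K27me3 of 20 to 30, its median was 44.5 scaled reads where WT H3K36me2 was 150 to 200, 51.3 at 200 to 250, 56.3 at 250 to 300 and 64.9 at 300 or more. Below 150 there was no such order: the medians were 46.3 at 25 to 50, 38.4 at 50 to 75, 36.9 at 75 to 100 and 39.5 at 100 to 150. The order from 150 upward was not particular to bins with both marks. In H3K36me2-rich bins with WT H3K27me3 under 20 and K36M H3K36me2 under 40, the K36M H3K27me3 medians were 22.7, 27.7, 32.2 and 44.0. K36M H3K36me2 was also higher along the members' range, with medians from 6.47 to 7.64. Its part in this order was not tested.

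**Figure D3:**
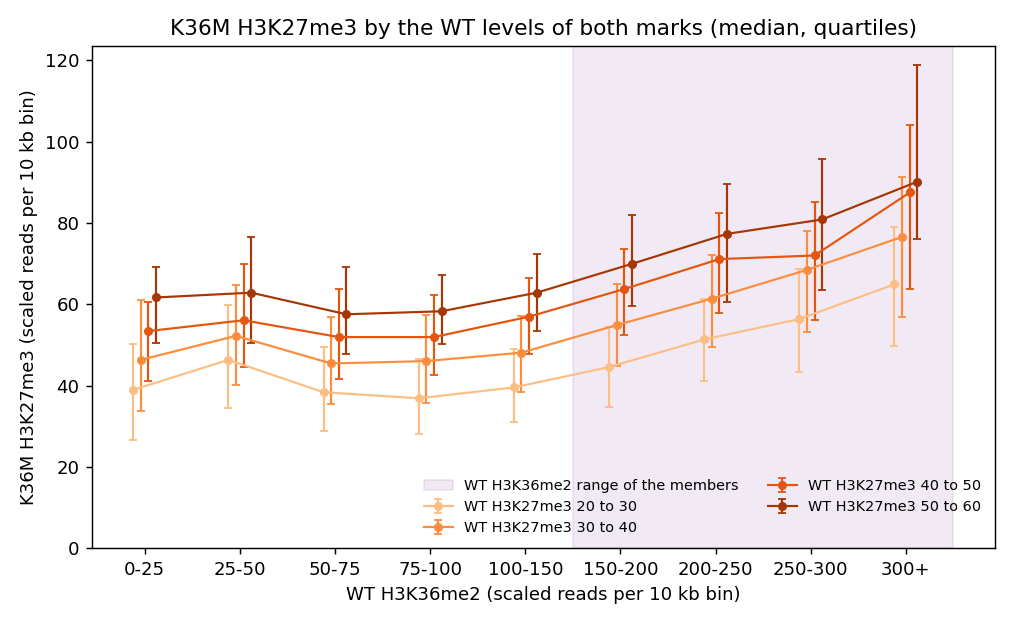
Median H3K27me3 in K36M (scaled reads per 10 kb bin) by WT H3K36me2, for 4 bands of WT H3K27me3; bars are quartiles over bins and the shaded range is that of the members. In each band the median is higher at WT H3K36me2 of 300 or more than at 150 to 200, as from 44.5 to 64.9 in the lowest band.

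H3K36me2-rich bins with little WT H3K27me3 had less of it in K36M than members did. The classes were split on WT H3K27me3, and members had to pass a limit on K36M H3K27me3. Their K36M levels, added amounts and ratios to WT are thus set in part by the choice of bins and are given as values only. The 10705 bins that met the WT criteria alone had a median H3K27me3 of 54.9 scaled reads in K36M. The 69005 bins with WT H3K36me2 of 150 or more, WT H3K27me3 under 20 and K36M H3K36me2 under 40 had a median H3K27me3 of 5.995 scaled reads in WT and 34.2 in K36M. Their median ratio was 5.52, against 1.83 in members. The ratio of K36M medians, members over these bins, was 1.61, and 1.38 to 1.86 over the autosomes. At WT H3K36me2 of 150 to 200 the K36M medians were 51.9 and 22.7, and at 300 or more they were 67.3 and 44.0. The median added H3K27me3, the K36M value minus the WT value, was 20.0 against 15.6 scaled reads in the first of these bands and 40.5 against 37.2 in the second. These amounts rest on the deposited factors: with library totals the median ratio was 2.18 in bins with little H3K27me3 and 0.723 in members, on opposite sides of 1.

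Members were scattered over many short runs. They formed 6744 runs of adjacent members, 4588 of them of 1 bin, which held 43.7% of all members; the other 5900 members had a member beside them. Runs of 5 or more bins numbered 164 and held 9.80%, 13 runs had 10 or more bins, and the longest spanned 140 kb. Longer runs had somewhat higher WT levels: median H3K36me2 was 194 scaled reads in single bins and 227 in runs of 5 or more, and median H3K27me3 26.5 and 31.5. K36M H3K27me3 medians were 53.7 and 55.8, and the median H3K27me3 ratio was 1.87 in single bins and 1.71 in runs of 5 or more. Wider intervals in the table end runs, and 122 of the flanks lacked a 10 kb bin.

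Flanking bins were classed by their WT values, with limits of 150 for H3K36me2 and 20 for H3K27me3. On 13366 flanks with a 10 kb bin, 56.1% were H3K36me2 alone, against 34.8% of autosomal bins, and 31.7% were H3K27me3 alone, against 14.5%. Bins with neither mark made up 8.60% of flanks and 45.9% of the autosomes. Neighbouring bins resemble each other in such data, so this contrast is a description. Of the runs, 2386 (35.4%) lay between H3K36me2 bins, 1800 (26.7%) between an H3K36me2 and an H3K27me3 bin, and 958 (14.2%) between H3K27me3 bins. These shares moved with the limits: at a limit of 15 for H3K27me3, 14.9% lay between H3K36me2 bins.

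The 1800 runs between a bin of each kind had a step in H3K27me3 in WT, which the classes of the flanks set, and a smaller one in K36M, whose flank values were not selected. Selection on WT values alone favours such a difference, so the medians are a description. From the H3K36me2 side across the run to the H3K27me3 side, WT medians were 12.4, 29.5 and 43.7 scaled reads, and K36M medians 40.7, 55.2 and 53.7. H3K36me2 medians in the same order were 246, 190.2 and 120 in WT and 8.19, 7.02 and 6.16 in K36M. Against the mean of the 3 nearest bins on either side, the run lay between its flanks in WT H3K27me3 in 1156 runs (64.2%) and above both in 518 (28.8%). In K36M it lay between them in 660 (36.7%) and above both in 937 (52.1%). Members had to keep at least 0.667 times their WT H3K27me3 in K36M while flanks did not, which favours runs above their flanks. At 200 kb on the H3K36me2 side, H3K27me3 had medians of 7.30 in WT and 34.2 in K36M.

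Runs between H3K36me2 bins had a higher median H3K27me3 than their flanks in each line. Their medians were 13.2 before, 25.2 in and 13.1 after the run in WT, and 43.1, 55.8 and 41.7 in K36M. The WT difference is set by the classes of run and flank, whereas the flanks' K36M values were not. The runs' own K36M H3K27me3 had to pass the members' limit, which favours runs above their flanks. In K36M the run was above both flanks, as means of 3 bins, in 1674 of 2386 runs (70.2%), against 2035 (85.3%) in WT. H3K36me2 dipped there in WT, to a median of 229 between flanks of 275 and 273.

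Runs between H3K27me3 bins had more H3K36me2 than their flanks in WT, as the classes require, and less H3K27me3. The latter is favoured by the limit of 60 on members, which flanks did not have. The K36M flank values were not selected, but the runs' own K36M H3K27me3 had to pass the members' limit. WT H3K27me3 medians were 45.2, 31.7 and 45.9, and K36M medians 56.0, 55.8 and 55.5, before, in and after the run. WT H3K36me2 had a median of 176 in the run between flanks of 113 and 112, and K36M H3K36me2 was 7.18 between 6.16 and 6.24. Against the mean of 3 bins on either side, the run was below both flanks in 51.9% of 958 runs in WT and in 27.5% in K36M.

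**Figure D4:**
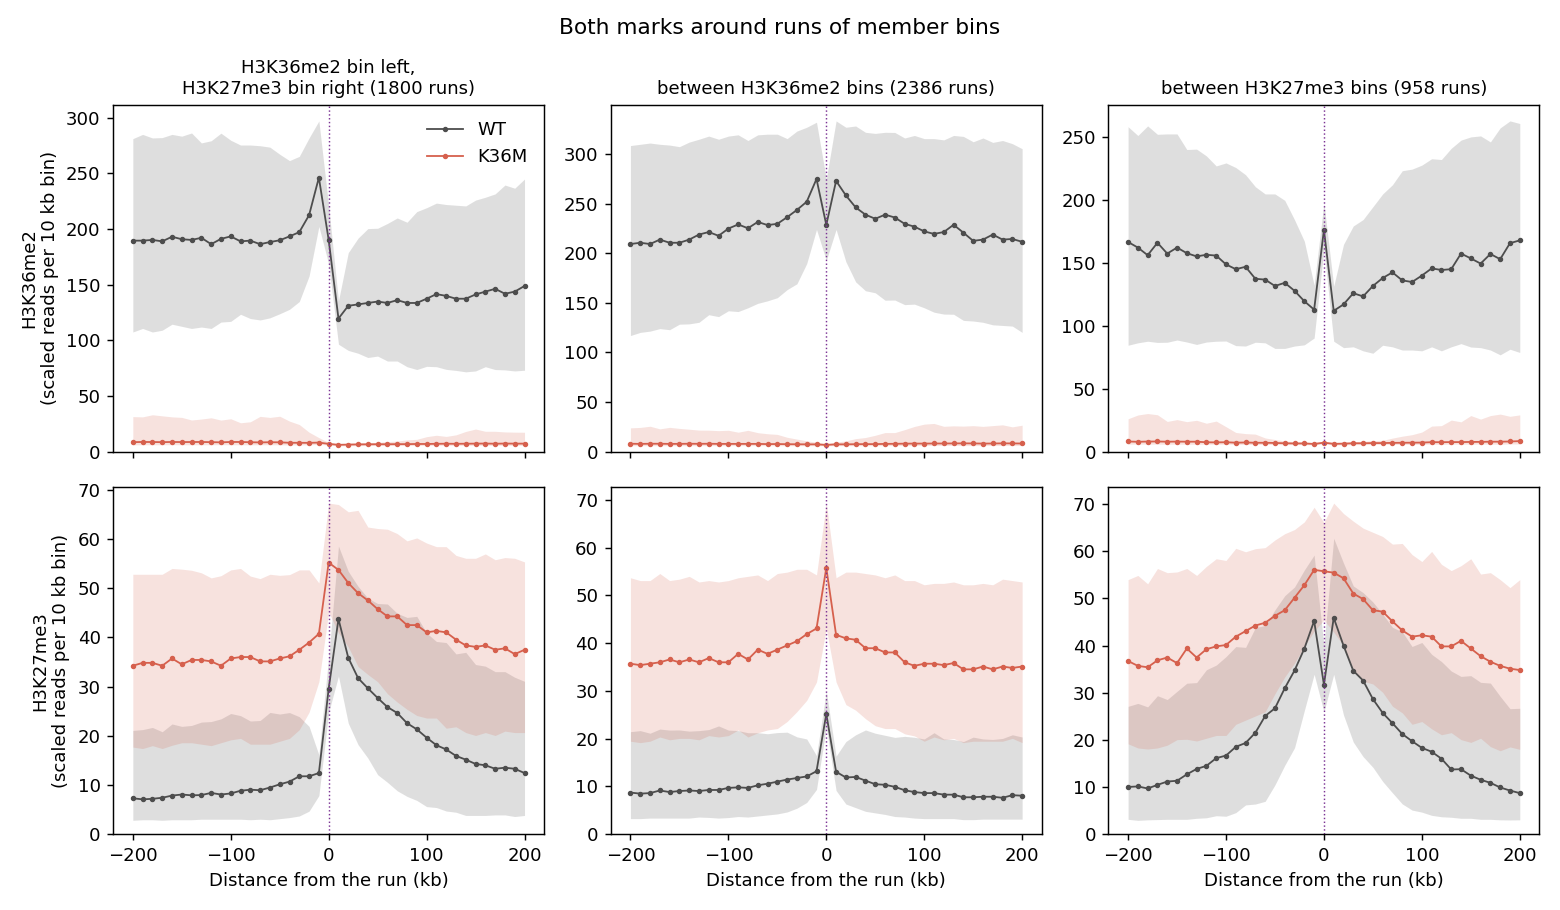
Median scaled reads per 10 kb bin (lines) with quartiles (bands) of H3K36me2 (top) and H3K27me3 (bottom) in WT and K36M, by distance in kb from runs of members, for the 3 layouts of flanks; the value at 0 is the mean of the run, and runs with H3K36me2 on 1 side are turned to have it on the left. Between H3K27me3 bins, median H3K27me3 was 31.7 between 45.2 and 45.9 in WT, values that chose the bins, and 55.8 between 56.0 and 55.5 in K36M.

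Inside runs the WT marks changed in opposite directions more often than in the same direction. Between adjacent members, H3K36me2 and H3K27me3 changed in opposite directions in 2396 of 3744 pairs (64.0%) and in the same direction in 1309. The share for other adjacent bins is not given here, so the value is not read as particular to members. K36M H3K27me3 changed in the same direction as WT H3K27me3 in 2543 pairs (67.9%), and in the same direction as WT H3K36me2 in 2058 (55.0%). Over all members, Spearman's rho was -0.22 between the WT marks, negative on 19 of 19 autosomes, and 0.36 between the lines for H3K27me3 (0.26 to 0.47). It was 0.21 between WT H3K36me2 and K36M H3K27me3 (0.02 to 0.36), and 0.36 between the K36M libraries of the different marks (0.04 to 0.49). The bins share libraries, neighbours, DNA content and the limits of the rule, so these values describe the members and carry no test.

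Long runs were named by a fixed rule and are given by position in mm9 with 1-based coordinates. They were the 5 runs of 11 or more bins and, of 8 runs tied at 10 bins, the 3 with the largest summed WT H3K27me3. No mouse annotation was used here, so genes are not named. The longest was chr14:22870001-23010000, 14 bins and 140 kb, where H3K36me2 went from a mean of 261 scaled reads in WT (bins from 160 to 339) to 6.70 in K36M (4.91 to 10.3), 38.9-fold lower (36.6 to 41.5). H3K27me3 there went from 36.9 (22.1 to 54.8) to 56.1 (43.4 to 77.6), 1.52-fold higher (1.45 to 1.60). The bin before it held 338 and 17.9 scaled reads of H3K36me2 and H3K27me3 in WT and the bin after it 122 and 59.8, so the run sat between bins of different kind. In K36M those flanks held 72.9 and 48.7 of H3K27me3, the reverse of their WT order.

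**Figure D5:**
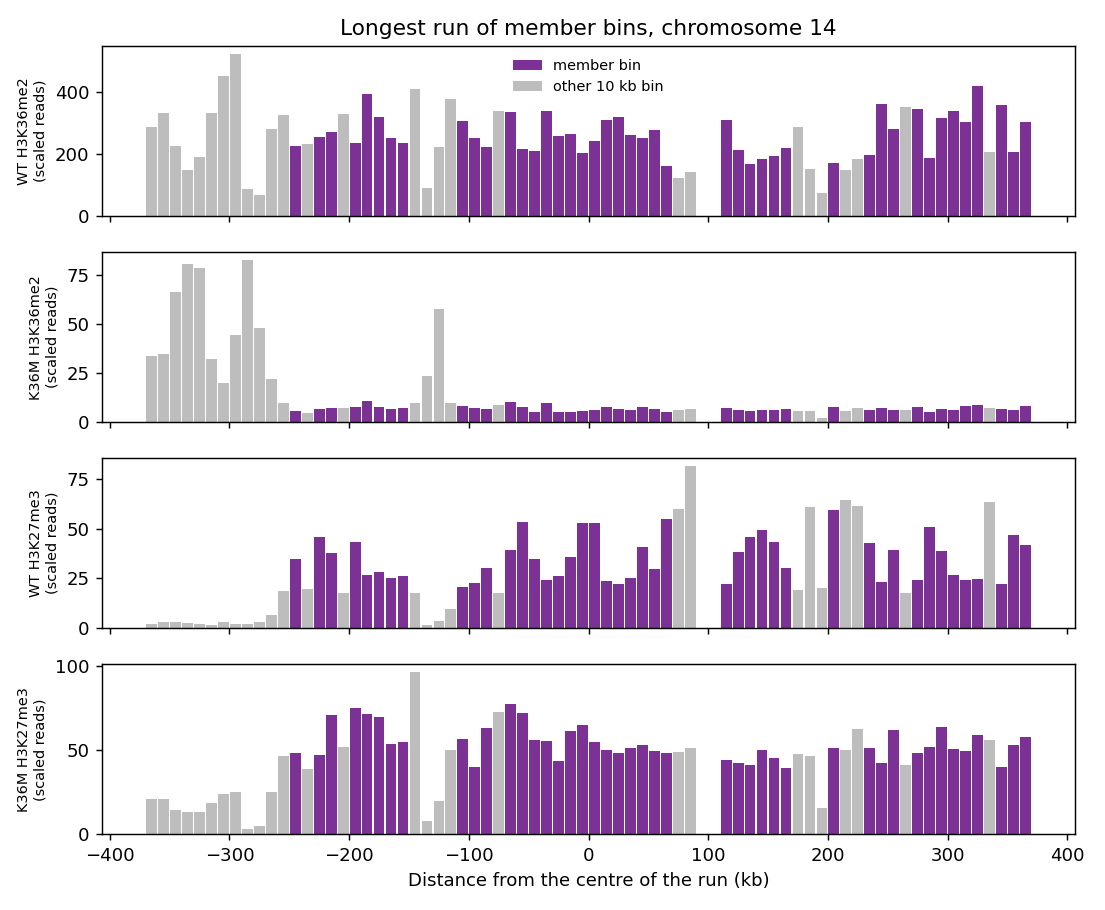
Scaled reads per 10 kb bin in each library across the longest run of members and its surroundings on chromosome 14, by distance from the run's centre in kb; purple bars are members, grey bars other 10 kb bins, and blank stretches are wider intervals left out. In the run WT H3K27me3 ranges from 22.1 to 54.8 and WT H3K36me2 from 160 to 339, often changing in opposite directions between neighbouring bins.

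Another 2 of the 8 named runs lay close to each other on chromosome 14. At chr14:23980001-24110000 (130 kb) the mean H3K27me3 per bin was 35.0 scaled reads in WT and 45.4 in K36M, 1.30 times as much (1.23 to 1.37). At chr14:24120001-24220000, 1 bin further on, it was 38.9 and 46.1, 1.18 times as much (1.12 to 1.26), the lowest of those named. H3K36me2 in them fell from 261 to 6.42 and from 218 to 6.77.

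Of those named, 3 lay on chromosome 13. At chr13:112860001-112980000 the mean H3K27me3 was 40.3 scaled reads in WT and 63.8 in K36M, 1.58 times as much (1.51 to 1.66). It was 1.46 times as much at chr13:30470001-30580000, with 33.3 and 48.4, and 1.56 times at chr13:71860001-71960000, with 37.0 and 57.6. Their H3K36me2 was 33.2-fold to 36.2-fold lower in K36M. The remaining named runs were chr2:52320001-52440000, where H3K27me3 was 36.8 and 81.8, 2.22 times as much (2.12 to 2.33) and the highest of those named, and chr18:39170001-39270000, where it was 35.4 and 54.6. The run on chromosome 2 had the lowest WT H3K36me2 of those named, at 192 scaled reads per bin.

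The members at the upper extreme of the H3K27me3 ratio were not all high in the same libraries. The 5 with the largest H3K27me3 ratio were chr5:15000001-15010000, chr5:14950001-14960000, chr13:12990001-13000000, chr1:33920001-33930000 and chr5:15190001-15200000. Those on chromosome 5 held 201 to 224 scaled reads of WT H3K36me2, near the member median. In K36M they held 31.7 to 35.8 of H3K36me2 and 289 to 316 of H3K27me3. At chr5:15000001-15010000 H3K27me3 went from 37.3 to 316 scaled reads, 8.48-fold higher (7.504 to 9.61), and K36M H3K36me2 was 35.8, about 5 times the median member. At chr13:12990001-13000000 WT H3K36me2 was 1088, the highest of all members, and H3K27me3 went from 20.6 to 147. In all, 24 members had a ratio of 5 or more, 8 of them on chromosome 13, which held 709 of the 10488 members. The WT H3K27me3 minimum in the members' rule limits how high their ratios can be. In the 69005 H3K36me2-rich bins with little WT H3K27me3 the median ratio was 5.52. The count is thus a description of members only.

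The 5 members highest in the WT marks together were chr1:33880001-33890000, chr1:33900001-33910000, chr1:33910001-33920000, chr14:43940001-43950000 and chr14:44590001-44600000. They held 598 to 893 scaled reads of WT H3K36me2 and 31.1 to 54.7 of WT H3K27me3. In K36M they held 14.9 to 35.96 of H3K36me2 and 114 to 212 of H3K27me3, each above the respective member median. Only 4 members were at or above the members' 95th percentile in all 4 libraries at once. With WT H3K27me3 left out, 50 members on 11 chromosomes were so in WT H3K36me2 and both K36M libraries, with a median WT H3K27me3 of 32.4. Copy number was not tested as a part of these values, since no input was used.

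At the lower extreme, the 5 members with the smallest H3K27me3 ratio lay at the limit of 0.667 by construction. They were chr6:92600001-92610000, chr1:128860001-128870000, chr19:33350001-33360000, chr4:83550001-83560000 and chr18:68820001-68830000. At the first of them H3K27me3 went from 24.3 to 16.2 scaled reads, a ratio of 0.668 (0.488 to 0.900), while H3K36me2 fell from 160 to 4.68. At chr18:68820001-68830000 it went from 55.6 to 37.2, and H3K36me2 fell from 185 to 5.62.

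Members lay on all 19 autosomes, at uneven density. They made up 6.91% of bins on chromosome 19, 6.602% on 18, 6.30% on 1 and 6.29% on 13, but 1.80% on chromosome 5, 1.92% on 7 and 2.45% on 3. As a share of H3K36me2-rich bins the range was 6.40% on chromosome 5 to 15.7% on 19, so part of the spread follows how much of each chromosome carried H3K36me2. The median H3K27me3 ratio ranged from 1.65 on chromosome 4 to 1.99 on 16, and the median H3K36me2 ratio from 0.0303 on 18 to 0.0373 on 9. Along chromosomes, members were 4.17% to 5.00% of bins in each of 5 equal parts.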

How the data were processed

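Chromatin immunoprecipitation with sequencing was made with MNase-digested mononucleosomes and, per the labels' protocols, soluble chromatin from Drosophila S2 cells was spiked into the mouse chromatin at 5% of its amount; another label gives equal parts of mouse and fly cells, which was not settled. The submitters' processing notes name Bowtie 1.0.0 as a tool, with mm9 and dm6 as genome builds. How reads were filtered and counted was not given in these sources. The authors deposited 1 signal value (scaled coverage) per interval and library. Every value was a whole multiple, within 0.01 of a read, of 1 step per library (0.636 and 0.078 for H3K36me2 in WT and K36M, 0.109 and 0.295 for H3K27me3), from which reads were recovered; totals were 59618463, 51982053, 31847430 and 29817968. That step presumably includes the spike-in factor, which nothing in the table can check. The titles of the input samples name H3.3 and their genotypes H3.1; inputs were not analysed here.

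Intervals of 10 kb with signal were used; 4659 of other widths and, on autosomes, 74 without signal were left out. Pseudocounts (5th percentile of WT values above 0) and level filters were set on the whole table. Regions were named as the 8 longest runs (ties by the sum of WT H3K27me3), the 5 members at either extreme of the H3K27me3 ratio and the 5 highest by the geometric mean of the WT marks. The members, classes and lists were chosen with earlier results of these data known. Scripts were tested on simulated data. Software was matplotlib 3.10.9, scipy 1.17.1, pandas 2.3.3 and numpy 2.4.6 under Python 3.11.15.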

Additional observations from a re-analysis of the deposited data

How the results depend on the processing

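No paired analysis was possible because each group had 1 library, and no library could be left out. Of 61 alternative values for 19 results, 24 stayed within 1.5 times a count, within the counting interval or within the spread over chromosomes, 35 moved further and 2 reversed. The limits are the single libraries, the unverified factors and the lack of input.

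The number of members was 5541 with a WT H3K36me2 minimum of 200, 16591 and 6649 with WT H3K27me3 minima of 15 and 25, and 5661 with every criterion met by over 2 counting standard deviations. The median ratio of K36M over WT was 0.314 for H3K36me2 and 0.723, reversed, for H3K27me3 with library totals. From summed values it was 0.0346 and 1.85, after background subtraction 0.0211 and 1.70, in runs of 2 or more bins 0.0326 and 1.80, and clear of the thresholds 0.0323 and 1.86; for H3K27me3 it was 1.82 with the WT criteria alone. Members with H3K27me3 past the rule of size numbered 7277 at 1.5-fold and 19 with library totals, against 80.9% and 32.8% of autosomal bins.

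At matched WT H3K27me3, the ratio of H3K36me2-rich over H3K36me2-poor bins was 1.04 for means of 5 adjacent bins. Alternatives added after seeing the data gave 1.25 with bins of 50 to 150 as comparator and 0.956, reversed, with K36M H3K36me2 of 6 to 7 in each class. Members over H3K36me2-rich bins with little H3K27me3 gave 2.13 at WT H3K36me2 of 150 to 250, 1.76 with WT H3K27me3 under 10 and, added later, 1.39 with K36M H3K36me2 of 6 to 7.

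With the mean of 3 bins, an H3K27me3 limit of 15 and an H3K36me2 limit of 120 for flanks, the runs between H3K36me2 bins were 25.9%, 14.9% and 39.3%, those between a bin of each kind 16.1%, 19.7% and 14.7%, and those between H3K27me3 bins 8.90%, 16.0% and 5.22%. The highest over the lowest share of members by chromosome was 3.84, and 2.46 among H3K36me2-rich bins. Added later, the share of bins with both marks that kept H3K36me2 was 0.320% at WT H3K36me2 of 150 to 250, 1.97% at a limit of 20 scaled reads and 0.252% at a limit of WT divided by 4, against 25.8%, 27.9% and 9.63% with WT H3K27me3 under 20. Runs above both flanks in K36M H3K27me3 were 46.4% against the nearest bins, also added later. For these reversals and shifts the cause was not tested.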
